A study of Mus musculus with 4 samples.

Results

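Matrix metalloproteinases and their tissue inhibitors were followed in leukocytes of the mouse hindpaw. The genes were Mmp2, Mmp9, Mmp12, Mmp13, Mmp14, Mmp19, Timp1, Timp2 and Timp3, chosen by symbol. All 9 were found among the 32285 genes of each of the 4 count matrices. Levels are given in CPM, the gene's UMIs (unique molecular identifiers, 1 per captured transcript) summed over a cell class in a library and scaled to 1000000 UMIs of that class. A percent positive is the share of cell barcodes with at least 1 UMI of the gene.

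Matrix metalloproteinases are zinc enzymes that cut collagens, elastin, proteoglycans and cell surface proteins. Most are secreted as inactive proenzymes, and Mmp14 is held in the plasma membrane, where it activates proMmp2. TIMPs bind the active site and block it, and Timp2 is also the adaptor through which Mmp14 captures proMmp2. In skin and joints these enzymes are known from fibroblasts, macrophages, granulocytes and osteoclasts during repair, leukocyte migration and bone turnover.

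The libraries came from male Lepr db/db mice (C57BLKS/J-Dock7m +/+ Lepr db, a leptin receptor mutant with obesity and diabetes; DB) and their WT littermates, at 12 and 21 weeks of age. Both hindpaws of 2 to 3 animals per condition were pooled, digested with collagenase and sorted for CD45, and each pool gave 1 droplet 3′ library (10x Genomics). Each of the 4 libraries is named by age and genotype, such as 12-week-DB, and values in runs of 4 stand in the order WT and DB at 12 weeks, then WT and DB at 21 weeks. With 1 library per condition there is no replicate of genotype or age, so no condition was tested and intervals cover counting error only. Classes of cells within a library were tested with the 4 libraries as blocks.

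By GENCODE annotation of GRCm38, Mmp12 (ENSMUSG00000049723, chr9:7344381-7369499, + strand) and Mmp13 (ENSMUSG00000050578, chr9:7272514-7283331, + strand) are neighbours in the cluster of metalloproteinase genes on chromosome 9. Mmp2 lies at chr8:92827291-92853420, Mmp9 at chr2:164940780-164955850, Mmp14 at chr14:54431612-54445364 and Mmp19 at chr10:128790910-128800824. Timp1 lies at chrX:20870166-20874735 and Timp3 at chr10:86300372-86349506, inside genes of the opposite strand (Syn1 and Syn3). Timp2 lies at chr11:118301069-118355740 on the − strand, where it overlaps Cep295nl of the same strand. Reads that fall in that overlap could belong to either gene.

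The 250 bases before the RefSeq start are shown for Mmp12, Mmp13, Mmp14 and Timp1, the members with a matched window that were higher in MHCII-high macrophages by the test described further on (Mmp13 in 3 of 4 libraries). Each line runs 5′ to 3′ on the + strand of GRCm38.p6. Capitals mark TGANTCA, the motif of AP-1 factors, and TATAAA, searched on both strands.
Mmp12 (its second listed start, chr9:7347124-7347373): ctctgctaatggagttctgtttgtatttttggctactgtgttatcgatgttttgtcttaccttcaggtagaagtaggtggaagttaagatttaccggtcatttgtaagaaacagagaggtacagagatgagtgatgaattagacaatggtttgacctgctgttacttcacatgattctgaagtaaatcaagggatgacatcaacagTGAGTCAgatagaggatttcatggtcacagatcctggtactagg
Mmp13 (chr9:7272264-7272513): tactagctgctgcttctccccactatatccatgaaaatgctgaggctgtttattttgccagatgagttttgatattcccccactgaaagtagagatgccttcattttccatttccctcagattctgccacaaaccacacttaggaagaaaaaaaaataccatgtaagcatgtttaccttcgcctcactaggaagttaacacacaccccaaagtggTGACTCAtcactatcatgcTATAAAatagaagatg
Mmp14 (chr14:54431348-54431597): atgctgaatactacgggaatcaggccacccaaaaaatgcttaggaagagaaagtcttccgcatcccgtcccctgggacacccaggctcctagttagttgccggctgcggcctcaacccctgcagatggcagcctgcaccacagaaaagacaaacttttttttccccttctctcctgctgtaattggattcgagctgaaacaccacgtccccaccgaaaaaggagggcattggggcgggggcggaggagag
Timp1 (chrX:20869916-20870165): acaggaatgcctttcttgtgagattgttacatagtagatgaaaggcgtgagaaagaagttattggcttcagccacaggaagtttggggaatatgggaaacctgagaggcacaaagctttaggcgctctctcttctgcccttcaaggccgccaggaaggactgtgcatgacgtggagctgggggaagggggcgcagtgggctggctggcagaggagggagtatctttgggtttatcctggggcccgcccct
The Mmp12 window shown held TGAGTCA, 44 to 38 bases before its start, which lies inside the annotated gene. The window of the first listed start (chr9:7344147-7344396) held neither motif. The Mmp13 window held TGACTCA at 35 to 29 bases and TATAAA at 16 to 11 bases before the start, and these 2 motifs did not overlap. Neither motif's letters were in the Mmp14 or the Timp1 window. Among 32851 RefSeq promoter windows of the same length, 6.75% held TGANTCA and 12.4% held TATAAA. The GC content of the 4 windows was 39.6%, 40.4%, 55.2% and 54.4%, in the order printed. RefSeq promoter windows were matched for 6 of the 9 genes, and Mmp2, Mmp9 and Mmp19 are named only.

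After barcodes with fewer than 200 genes or more than 10% mitochondrial UMIs were left out, 27800 of 30793 barcodes remained, 5271 to 8707 per library, with 46435961 to 67723605 UMIs. The median depth was 7193.5 to 8000.5 UMIs in 3 libraries and 5355 in 21-week-DB, where 79.6% of barcodes had a UMI of Ptprc (CD45) against 88.6% to 91.2% in the others. Marker genes placed barcodes in 17 classes, 11.9% passed no gate and 2.28% passed the gates of 2 lineages and were left out. In at least 25% of a class's barcodes, 9 of 10 macrophage markers, 10 of 11 cDC2 markers, 3 of 3 Langerhans markers, 7 of 7 neutrophil markers and 9 of 9 stromal markers were found. The 21-week libraries shared 146 kept barcodes, at a median of 728.5 to 867.5 UMIs, the 12-week libraries shared 38, and other pairs shared 5 to 18. Headers of the files name Cell Ranger 5.0.0 for the 12-week libraries and 6.0.0 for the 21-week ones, so age and software version cannot be told apart.

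**Figure D1:**
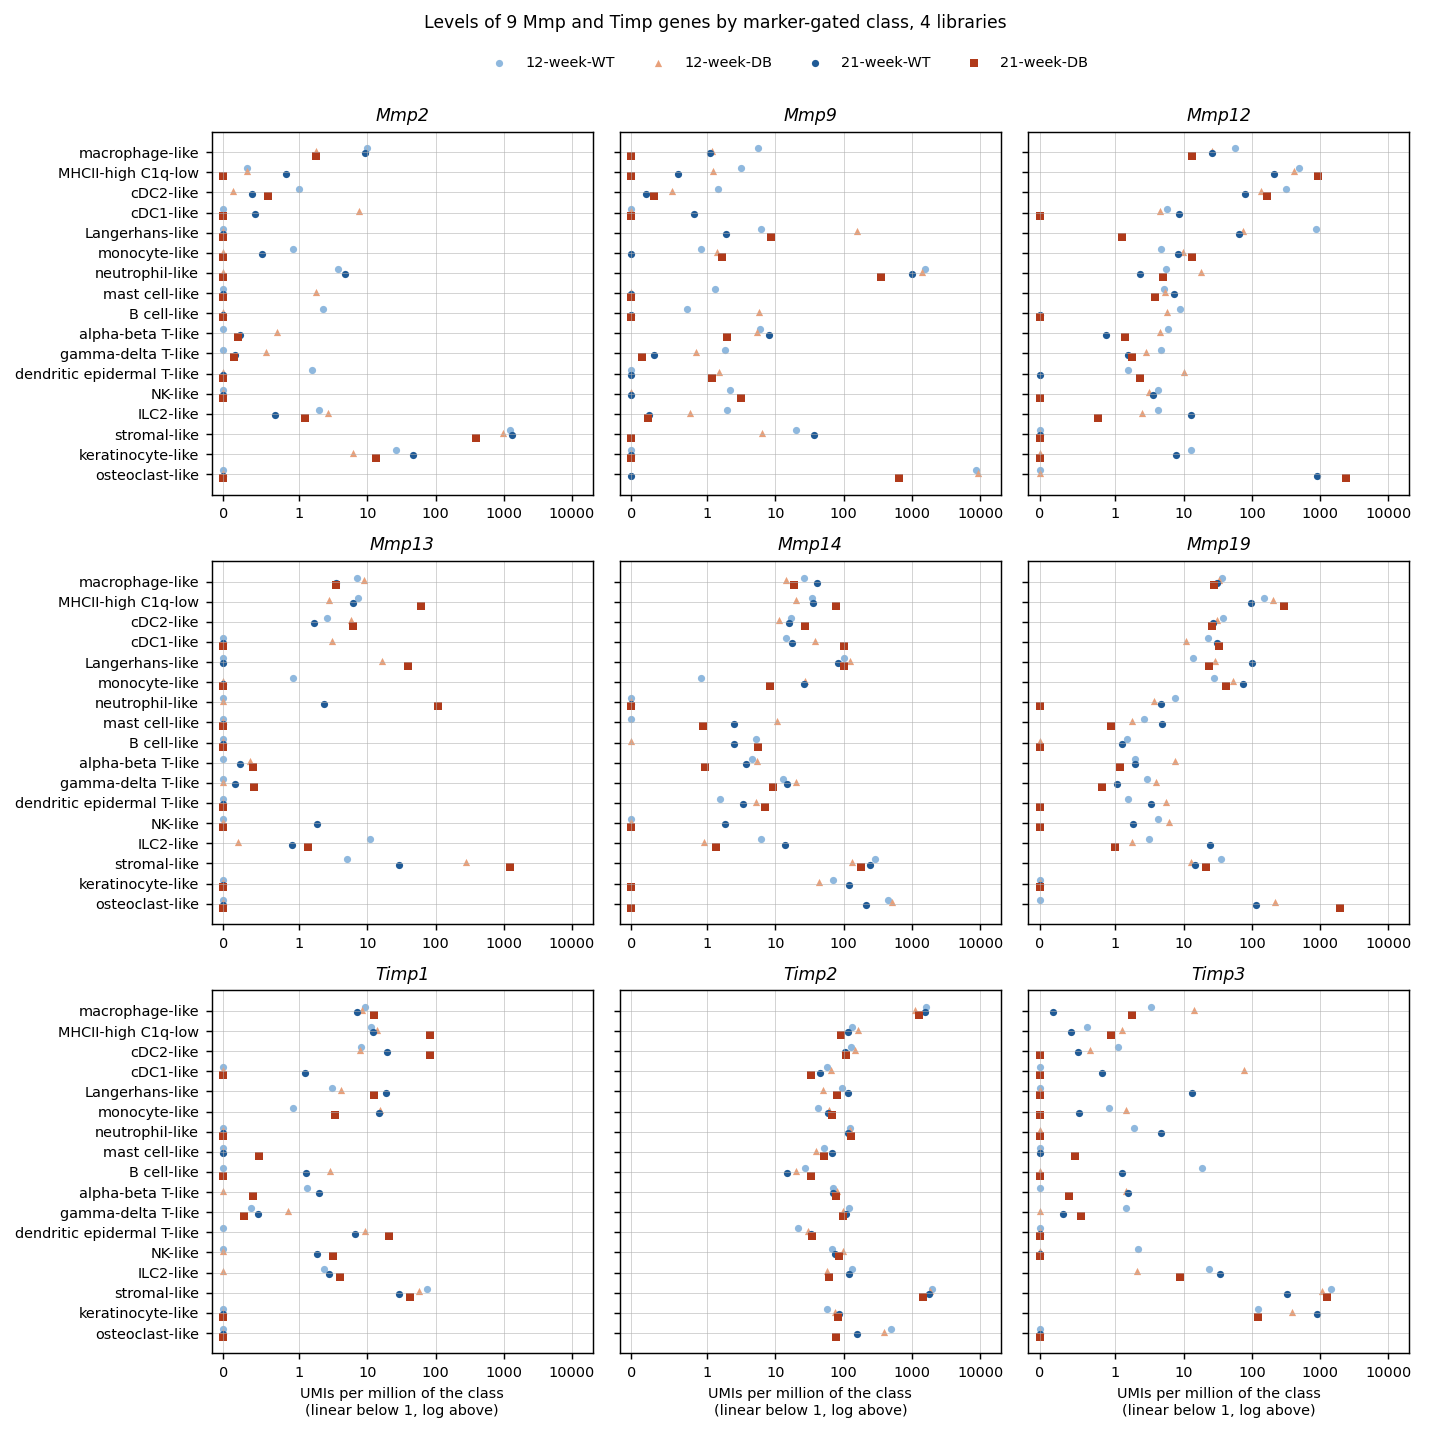
Level of each gene (1 panel per gene) in CPM (x axis, linear below 1 and log above) by marker-gated class (rows), with 1 point per library coloured by library. Stromal-like points lie far to the right for Mmp2 (median 1109), Timp2 (1814) and Timp3 (1182), macrophage-like points for Timp2 (1413) and neutrophil-like points for Mmp9 (1211).

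Mmp2, the gelatinase A of fibroblasts, belonged to the few stromal-like barcodes that had passed the CD45 sort (Col1a1, Col1a2, Col3a1, Dcn and Lum; 28, 25, 15 and 20 barcodes). In them Mmp2 stood at 1247 CPM (95% exact Poisson interval 1097 to 1412), 972 (824 to 1138), 1330 (1143 to 1538) and 397 (300 to 516), and the 21-week-DB interval lay below the other 3. These 88 barcodes held 39.7% to 65.1% of a library's Mmp2 UMIs. In macrophage-like barcodes Mmp2 was at 10.1 and 9.30 CPM in the WT libraries and at 1.80 and 1.78 in the DB libraries, with 5.98%, 7.71%, 1.57% and 1.16% of barcodes positive. Alpha-beta and gamma-delta T-like barcodes together were taken as the level that free RNA can give (the T-like level). They had 0 to 0.629 CPM and at most 0.396% positive at a median depth of 5167 to 6476 UMIs. The summed stromal list in macrophage-like barcodes also differed in this direction (204 and 276 CPM in WT, 79.5 and 111 in DB). Most of each sum was Sparc, at 168 and 259 CPM in WT and 67.34 and 96.96 in DB. These sums thus mainly follow Sparc, and no sum without it was taken. The part of stromal RNA in the Mmp2 values was not tested.

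Mmp9, the gelatinase B that neutrophils store in granules, marked neutrophil-like barcodes (S100a8, S100a9 and Retnlg; 105, 88, 119 and 41 barcodes). Its level there was 1563 CPM (1459 to 1673), 1429 (1291 to 1577), 994 (902 to 1093) and 358 (280 to 451). The share of positive neutrophil-like barcodes was 89.5%, 73.9%, 76.5% and 56.1% in the same order, so both measures were lowest in the aged DB library, at a median depth of 2493 to 3196 UMIs. Neutrophil-like barcodes exceeded macrophage-like ones by 10.16 ± 0.44 (SE) on the log2 scale in 4 of 4 libraries (edgeR quasi-likelihood test, adjusted p = 2.09e-39). The T-like level of Mmp9 was 0.884 to 3.50 CPM, and the macrophage-like level was 5.59, 1.16, 1.09 and 0.

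A small set of osteoclast-like barcodes (Acp5 and Ctsk with other osteoclast markers; a gate added after these values were seen) carried much of the remaining Mmp9. In 12-week-DB, 5 such barcodes had 411, 81, 1, 588 and 239 Mmp9 UMIs, together 69.6% of that library's Mmp9, whereas 88 neutrophil-like barcodes held 20.7%. In 12-week-WT, 3 such barcodes had 171, 7 and 17 UMIs, or 15.0% of the total, and in 21-week-DB the 1 barcode had 17. The 2 barcodes of 21-week-WT had none. In the 3 libraries other than 12-week-WT these barcodes had a median of 26317 to 35310.5 UMIs, the deepest of any class, and whether they held more than 1 cell was not tested. The gate summed Acp5 and Ctsk, so a barcode could pass with little Acp5. The 12-week-DB barcode with 1 Mmp9 UMI had 3 Acp5 and 86 Ctsk UMIs. In 21-week-WT 1 barcode had 1 and 83, and that of 21-week-DB had 2 and 164. Whether those with little Acp5 were osteoclasts was not tested. Osteoclasts are known to use Mmp9 and Mmp14 when resorbing bone, and the 12-week-DB barcodes also held 73 Mmp14 UMIs. Over all barcodes Mmp9 had 1304, 1896, 556 and 135 UMIs per library, so without classes 12-week-DB would rank first, while the neutrophil-like level of 12-week-DB was below that of 12-week-WT.

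Langerhans-like barcodes (Cd207, Epcam and Cldn1) had Mmp9 at 6.05 CPM in 12-week-WT and 158 (125 to 198) in 12-week-DB, and at 1.89 and 8.73 in the older pair. In 12-week-DB, 50% of the 46 barcodes were positive (exact Clopper-Pearson 95% interval 34.9% to 65.1%), against 3.12% to 4.88% in the other libraries. The 12-week-DB level was 26.1 times that of 12-week-WT (9.80 to 98.4), from 76 UMIs against 4.

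**Figure D2:**
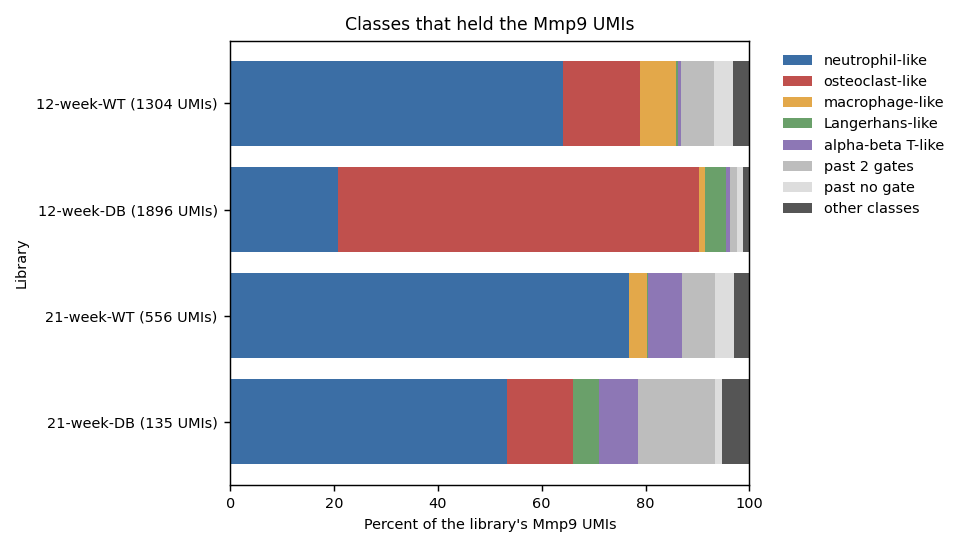
Share of each library's Mmp9 UMIs (x axis, percent; 1 bar per library, with its total) by the class that held them. Neutrophil-like barcodes held 64.0%, 20.7%, 76.8% and 53.3% in the order of the bars, and osteoclast-like barcodes held 69.6% in 12-week-DB.

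Mmp12, the macrophage elastase, was high in some classes of antigen-presenting cells with little C1q. In barcodes high for MHC class II genes and low for C1q that carried no dendritic cell marker gate (MHCII-high C1q-low; 225, 245, 421 and 87 barcodes) the level was 491 (467 to 516), 418 (396 to 441), 213 (200 to 226) and 933 (876 to 993) CPM. In cDC2-like barcodes it was 321, 137, 78.4 and 165, with 36.6%, 22.1%, 17.8% and 21.1% positive. In cDC1-like barcodes, also gated high for MHC class II and low for C1q, it was only 0 to 8.66 (median 5.11). Macrophage-like barcodes had 57.2, 26.0, 26.3 and 13.4 CPM and T-like barcodes 1.26 to 5.12. Despite its name, Mmp12 was thus lower in macrophage-like than in cDC2-like barcodes in 4 of 4 libraries, by 2.68 ± 0.30 on the log2 scale (edgeR, adjusted p = 0.000286). No Mmp12 UMI was found in 634974 UMIs of stromal-like barcodes, at least 6.59-fold lower than in macrophage-like ones (floor of 3 counts over the group).

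Single barcodes carried a large part of Mmp12 in places. In Langerhans-like barcodes of 12-week-WT, 276 of 580 Mmp12 UMIs came from 1 barcode, and in those of 12-week-DB, 32 of 36. One barcode of 12-week-DB that passed no gate had 930 UMIs, 20.1% of that library's Mmp12. An osteoclast-like barcode had 63 Mmp12 UMIs in 21-week-WT, and so did one in 21-week-DB. Both were among the barcodes with little Acp5 named above.

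Mmp13, the main interstitial collagenase of rodents, was sparse. Macrophage-like barcodes had 7.08 (5.84 to 8.5), 9.03 (7.73 to 10.5), 3.50 (2.68 to 4.50) and 3.49 (2.56 to 4.64) CPM, with 1.30% to 2.56% positive, above the T-like level of 0 to 0.402. In 12-week-DB, 77 of 171 macrophage-like Mmp13 UMIs came from 1 barcode, and without it the level was 4.97. Stromal-like barcodes ranged from 4.99 in 12-week-WT to 1234 in 21-week-DB, where 30% were positive, and all 44 UMIs of the 12-week-DB stromal-like barcodes came from 1 barcode. Of the MHCII-high C1q-low Mmp13 in 21-week-DB, 61 of 66 UMIs sat in 1 barcode.

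Mmp14, the membrane-type metalloproteinase, was present in Langerhans-like barcodes of every library, at 99.8 (77.2 to 127), 125 (95.2 to 161), 83.0 (60.3 to 111) and 102 (81.3 to 127) CPM, with all 4 intervals overlapping and 56.5% to 68.8% of barcodes positive. Stromal-like barcodes had 284, 133, 243 and 177. In macrophage-like barcodes Mmp14 was at 26.4 (24.0 to 29.1), 14.2 (12.6 to 16), 40.4 (37.4 to 43.5) and 19.0 (16.7 to 21.5), so that each WT library lay above both DB libraries and no 2 intervals overlapped. The T-like level of Mmp14 was 9.77 (7.04 to 13.2), 13.5 (10.8 to 16.7), 10.3 (8.52 to 12.4) and 5.79 (4.53 to 7.29), so the macrophage-like level of 12-week-DB was not above it. Gamma-delta T-like barcodes had 12.7, 20.2, 14.9 and 9.15 CPM against 4.54, 5.29, 3.72 and 0.976 in alpha-beta T-like ones, higher in 4 of 4 libraries. Both are part of that T-like level, and the difference was not tested. For Mmp14 the T-like level may thus lie above what free RNA gives. The macrophage-like 14.2 of 12-week-DB was above the 5.29 of alpha-beta T-like barcodes of that library. Neutrophil-like barcodes had no Mmp14 UMI in 1440126, at least 12-fold below macrophage-like ones (edgeR, adjusted p = 1.31e-06).

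Mmp19, a secreted metalloproteinase of macrophages and skin, had, like Mmp12, its highest median over libraries in MHCII-high C1q-low barcodes, at 153 (140 to 167), 208 (192 to 224), 98.5 (89.9 to 108) and 299 (267 to 334) CPM. From 35.2% to 46.5% of these barcodes were positive, and 228 of 675 UMIs in 12-week-DB came from 1 barcode. The few osteoclast-like barcodes had 0, 217, 113 and 1938 CPM, from 0, 31, 8 and 51 UMIs. Of these UMIs, 30 in 12-week-DB, 7 in 21-week-WT and all 51 in 21-week-DB came from the barcodes with little Acp5. Macrophage-like barcodes had 37.1, 33.5, 31.3 and 28.1, a narrow range, with 14.5% to 21.7% positive. The cDC2-like level was 38.3, 30.4, 27.1 and 25.9, which did not differ from the macrophage-like level past the test (−0.09 ± 0.08 on the log2 scale, edgeR adjusted p = 0.339).

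Timp1, the inducible inhibitor, was low in most leukocytes. Macrophage-like barcodes had 9.25 (7.82 to 10.9), 8.29 (7.05 to 9.70), 7.12 (5.92 to 8.49) and 12.7 (10.9 to 14.7) CPM, highest in 21-week-DB, where the interval began just above that of 12-week-WT. In cDC2-like barcodes it was at 8.19 (6.43 to 10.3), 7.76 (5.89 to 10.0), 19.2 (17.1 to 21.5) and 82.9 (73.4 to 93.2). In 21-week-DB 17.2% of them were positive (12.8% to 22.4%), and 81 of 278 UMIs came from 1 barcode. In the MHCII-high C1q-low class it was at 11.3, 13.9, 12 and 82.7, and 21-week-DB was again highest. The T-like level was 0.321 to 1.08, and neutrophil-like barcodes had no Timp1 UMI in any library. Epidermal T-like barcodes, which are not part of the T-like level, had 0 to 20.8 CPM (median 7.97), from 45 UMIs in all.

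Timp2, the inhibitor that also serves Mmp14 as a partner, was a macrophage gene in this sort. Macrophage-like barcodes had 1600 (1580 to 1620), 1128 (1113 to 1143), 1539 (1520 to 1557) and 1287 (1268 to 1306) CPM, with 95.8% to 96.5% positive. They held 79.7% to 86.0% of all Timp2 UMIs of a library. Stromal-like barcodes had 1946, 1842, 1786 and 1447, and the difference from macrophage-like barcodes did not pass the test (0.30 ± 0.19 on the log2 scale, edgeR adjusted p = 0.246). Timp2 exceeded the cDC2-like level by 3.32 ± 0.15 (adjusted p = 7.69e-06) and the neutrophil-like level by a log2 difference of 3.02 ± 0.31 (adjusted p = 5.21e-15), each in 4 of 4 libraries. T-like barcodes had 88.1 to 102 CPM.

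Timp3, the matrix-bound inhibitor, had its highest levels in structural cells. Stromal-like barcodes had 1427 (1266 to 1602), 1080 (923 to 1255), 323 (235 to 434) and 1284 (1104 to 1485) CPM, and keratinocyte-like barcodes 122, 392, 911 and 122. ILC2-like barcodes came next by median, at 16.1 (2.11 to 34.6 over the libraries), with 0.891% to 3.02% positive. In stromal-like barcodes it stood above the macrophage-like level by 8.36 ± 0.27 on the log2 scale (adjusted p = 8.03e-199). Macrophage-like barcodes had 3.29, 14.4, 0.172 and 1.78, but 265 of 272 UMIs in 12-week-DB came from 1 barcode of 51581 UMIs whose sequence occurs in another library too, and without it the level was 0.371.

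Across the tests of classes, the 9 genes were read against all genes fitted. Between macrophage-like and cDC2-like barcodes, 50.7% of 12736 genes passed the test and 4 of the 9 did: Mmp2, Mmp9 and Timp2 higher in macrophage-like barcodes and Mmp12 lower. For Mmp9 this difference was 1.57 ± 0.51 (adjusted p = 0.0360) with 3 libraries higher and 1 lower, and it did not pass with DESeq2 (adjusted p = 0.187), without 12-week-DB (0.0729) or without 21-week-WT (0.140). Between neutrophil-like and macrophage-like barcodes 39.0% passed and 6 of the 9 did, with Mmp9 higher and Mmp12, Mmp14, Mmp19, Timp1 and Timp2 lower. The Mmp12 call there (−1.67 ± 0.54, adjusted p = 0.00871) did not hold with DESeq2 (0.0559), without 12-week-WT (0.223) or without 21-week-WT (0.0876). Between stromal-like and macrophage-like barcodes 30% passed and 7 of the 9 did, with Mmp2, Mmp9, Mmp13, Mmp14, Timp1 and Timp3 higher and Mmp12 lower. The stromal-like difference of Mmp2 was 7.62 ± 0.26 and that of Mmp14 was 3.07 ± 0.24. That of Mmp13 (5.03 ± 0.31) had 3 libraries higher and 1 lower, and that of Mmp9 (3.10 ± 0.86) did not pass without 21-week-WT (adjusted p = 0.204).

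Within the macrophage-like class, which held 1623, 1718, 1518 and 1381 barcodes, the genes divided by MHC class II level. MHCII-high barcodes were those with a log-normalized H2-Ab1 value of at least 2, and they made up 34.4%, 35.9%, 50% and 10.9% of the class, fewest in 21-week-DB. Mmp12 was at 155, 67.0, 50.2 and 91.7 CPM in MHCII-high barcodes and at 7.03, 4.74, 1.86 and 3.99 in MHCII-low ones. Every MHCII-high value of Mmp12 lay above every MHCII-low value, and the difference was 4.43 ± 0.13 on the log2 scale (edgeR, adjusted p = 7.38e-09). Mmp14 was at 42.0, 21.2, 55.7 and 64.8 against 18.5, 10.6, 24.7 and 13.5, and Mmp19 at 74.1, 45.1, 48.7 and 50.3 against 18.1, 27.4, 13.5 and 25.4. Both were higher in 4 of 4 libraries, by 1.45 ± 0.16 (adjusted p = 7.39e-05) and 1.51 ± 0.19 (adjusted p = 0.000168).

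Timp1 moved with these enzymes and Timp2 moved the other way. Timp1 was at 17.1, 11.9, 10.5 and 19.3 CPM in MHCII-high and 5.25, 6.42, 3.72 and 11.9 in MHCII-low barcodes (1.30 ± 0.18, adjusted p = 0.000291). Timp2 was at 629, 589, 846 and 442 against 2096, 1408, 2247 and 1389, lower in MHCII-high barcodes in 4 of 4 libraries by 1.40 ± 0.08 (adjusted p = 9.39e-07). Mmp2 was also lower, at 2.57, 0.927, 3.07 and 0.690 against 13.9, 2.25, 15.7 and 1.91 (2.09 ± 0.24 lower, adjusted p = 9.00e-05). Of all genes in this comparison 30.9% passed, against 8 of 8 members tested. Of these, Mmp13 (1.17 ± 0.34, adjusted p = 0.0234; 77 of its 114 MHCII-high UMIs in 12-week-DB from 1 barcode) and Mmp9 (2.06 ± 0.53, adjusted p = 0.0158) were not higher in every library, and neither passed without 21-week-WT (0.0926 and 0.0697).

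Other markers moved with this division. The summed monocyte list was at 886 to 1326 CPM in MHCII-high and 361 to 509 in MHCII-low barcodes. The macrophage list was at 10844 to 14636 against 18624 to 26120, and the stromal list, which includes Sparc, at 15.2 to 139 against 102 to 416. The cDC2 list, which includes the MHC class II genes used for the division, was at 19676 to 30155 against 600 to 1242. The part of these in the member differences was not tested.

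Lyve1, a hyaluronan receptor of perivascular resident macrophages, gave the second division. Each barcode was thinned to 2000 UMIs so that depth did not decide who had a Lyve1 UMI, and 50.1% to 58.3% were Lyve1+. Timp2 was at 1908, 1586, 2263 and 1520 CPM in Lyve1+ and 960, 663, 592 and 939 in Lyve1- barcodes, with no overlap (1.14 ± 0.13 higher, edgeR adjusted p = 7.95e-07). Mmp12 was at 5.99, 5.33, 10.9 and 0 in Lyve1+ against 121, 25.5, 31.8 and 25 in Lyve1- barcodes (log2 difference −3.19 ± 0.34, adjusted p = 4.19e-07). Mmp14 was at 18.0, 7.70, 23.6 and 7.96 against 48.0, 24.9, 84 and 30.9 (−1.79 ± 0.18, adjusted p = 1.70e-07). Mmp19 (−1.19 ± 0.20, adjusted p = 0.000144) and Timp1 (−0.90 ± 0.29, adjusted p = 0.0381) were lower in Lyve1+ barcodes too, each in 4 of 4 libraries, but the Timp1 call did not hold with DESeq2 (adjusted p = 0.373) or when any library except 12-week-WT was left out (0.0944 to 0.226). All 5 members with enough UMIs passed, where 16% of all genes did. Other lists moved with this division too: the cDC2 list summed to 3694, 2828, 4731 and 493 CPM in Lyve1+ against 22030, 15002, 28556 and 5211 in Lyve1- barcodes, and the monocyte list to 378 to 546 against 459 to 1054, lower in Lyve1+ in 4 of 4 libraries. The macrophage and stromal lists were higher in Lyve1+ barcodes in 4 of 4 libraries, and the part of these in the member differences was not tested.

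**Figure D3:**
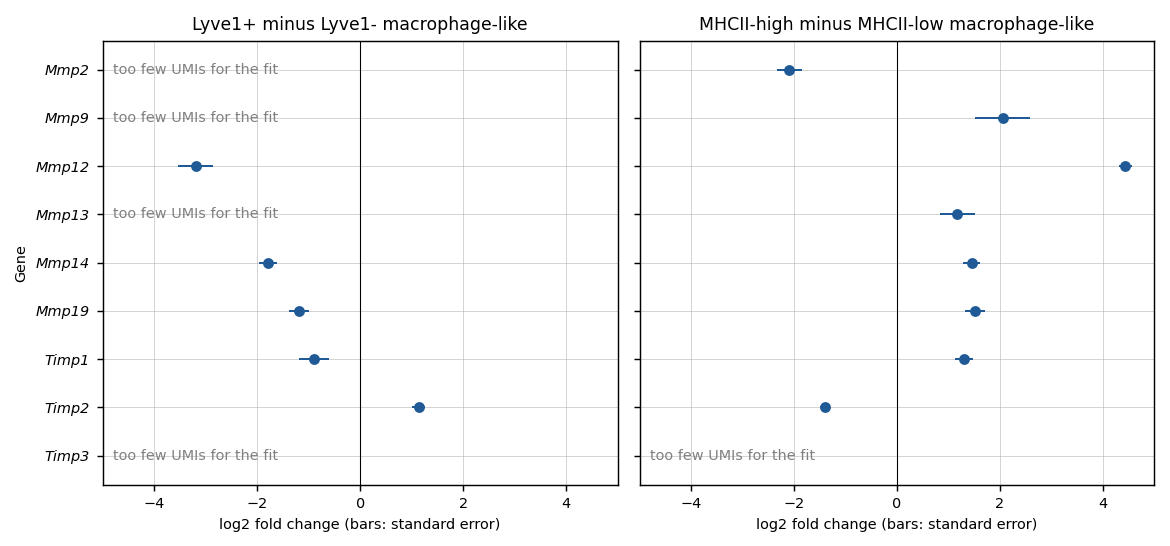
Log2 fold changes (points) of the members with enough UMIs for the fit, 5 on the left and 8 on the right. They are between Lyve1+ and Lyve1- macrophage-like barcodes (left) and between MHCII-high and MHCII-low ones (right). Bars are SE derived from the F statistic of the edgeR fit over 4 libraries. Mmp12, Mmp14, Mmp19 and Timp1 lie left of 0 for Lyve1 and right of 0 for MHCII, and Timp2 lies on the other side in both (1.14 and −1.40).

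The genes that went with Mmp14 inside the class were then listed. After thinning, 69, 35, 111 and 37 macrophage-like barcodes had an Mmp14 UMI, and 243 of 8945 genes (2.72%) differed between them and the Mmp14-negative barcodes, 169 higher and 74 lower. Mmp12 rose most among well-detected genes (3.65 ± 0.26; 239 against 16.8 CPM), followed by Il1b (2.80 ± 0.15; 1217 against 164), the interleukin-1 antagonist Il1rn (2.79 ± 0.23), the matricellular protein Thbs1, which is on the monocyte list (2.68 ± 0.30) and the prostaglandin synthase Ptgs2 (2.40 ± 0.22). Ednrb (−3.04 ± 0.40), Cd209d (−2.07 ± 0.38), C4b (−1.74 ± 0.29), the water channel Aqp1 (−1.41 ± 0.16) and the lectin Clec10a (−1.36 ± 0.22) fell most. Of the other members, Mmp19 (2.05 ± 0.27), Timp1 (2.76 ± 0.48) and Mmp13 (2.31 ± 0.70, adjusted p = 0.0388) were higher, and Timp2 (−0.33 ± 0.12, adjusted p = 0.176) and Mmp2 (−0.24 ± 1.02, adjusted p = 0.97) did not pass. The Mmp13 call did not hold without 12-week-WT (0.738) or 21-week-WT (0.304), and without 21-week-WT, which had most Mmp14-positive barcodes, 118 genes passed in place of 243.

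Mmp19-positive barcodes (87, 88, 70 and 61) differed from the negative ones in 79 of 8785 genes (0.899%), 58 higher and 21 lower. Mmp12 (2.07 ± 0.30; 92.5 against 21.5 CPM) again led, with the interferon-induced Rsad2 (1.87 ± 0.35), Il1rn (1.72 ± 0.26), Mmp14 (1.68 ± 0.29; 88.8 against 26.5) and Flrt3 (1.57 ± 0.29). Those that fell most were the collagen-binding Sparc (−2.68 ± 0.31), S100b (−2.19 ± 0.35), the fractalkine receptor Cx3cr1 (−1.53 ± 0.18), Retnla (−1.35 ± 0.13) and the cationic amino acid transporter Slc7a2 (−1.24 ± 0.18). Timp2 fell by 0.56 on the log2 scale (SE 0.10, adjusted p = 0.000147), from 1402 to 938 CPM, in 4 of 4 libraries. Timp1 was at 25.5 against 8.99 and did not pass (adjusted p = 0.267). Without 12-week-WT 38 genes passed in place of 79 and Mmp12 did not (adjusted p = 0.0701), and without 21-week-WT 47 passed and Timp2 did not (0.0502). Too few barcodes were positive for the other metalloproteinases to be used in this way.

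Between the libraries, macrophage-like levels were compared by ratio, and a gene with at least 50 UMIs was counted when 2-fold or more apart. At 12 weeks the DB library stood apart from WT in 4 of 9 members, where 4.33% of 11605 genes did: Mmp2 at a ratio of 0.179 (95% exact interval 0.120 to 0.260), Mmp9 at 0.208 (0.124 to 0.334), Mmp12 at 0.455 (0.407 to 0.508) and Timp3 at 4.37. The Timp3 ratio rested on the single barcode named above and was 0.331 without it. Mmp14 was at 0.537 (0.460 to 0.627), Timp2 at 0.705 (0.692 to 0.718) and Mmp19 at 0.904 (0.807 to 1.01). The DB level of Mmp14 overlapped the T-like one, which includes the higher gamma-delta T-like barcodes. The median ratio was 0.705 over the 9 members and 1.01 over all genes.

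At 21 weeks 2 of the 7 members with enough UMIs were past the fold, where 8.20% of 11398 genes were: Mmp2 at 0.192 (0.119 to 0.295) and Mmp14 at 0.471 (0.406 to 0.544), both lower in DB. Mmp12 was at 0.511 (0.428 to 0.608), Timp2 at 0.836 (0.820 to 0.852) and Mmp19 at 0.897 (0.784 to 1.02), while Timp1 was at 1.78 (1.41 to 2.27). Mmp9, with 19 UMIs in WT and none in DB, had too few to be counted. The median was 0.836 over the members and 1.05 over all genes.

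Between ages, the WT libraries were apart in 4 of 9 members, all lower at 21 weeks, where 4.12% of genes were past the fold in either direction. They were Mmp9 (0.195), Mmp12 (0.460, 0.410 to 0.515), Mmp13 (0.495) and Timp3 (0.0524). When barcodes were named by their highest marker score, Mmp12 was at 1.24 and 1 member was past the fold, and with TMM factors 2 were. The DB libraries were apart in 2 of 8, Mmp13 (0.386) and Timp3 (0.124), both lower at 21 weeks, where 7.40% of genes were. The Timp3 ratio in DB rested on the same barcode as at 12 weeks, and was 1.40 without the top barcode of each library and 5.57 without shared barcodes. For Mmp13, 77 UMIs of 12-week-DB came from 1 MHCII-high barcode. Its ratio in DB was 0.117 (0.0239 to 0.352) in MHCII-high and 0.800 (0.527 to 1.21) in MHCII-low barcodes. Mmp14 was higher at 21 weeks in both genotypes, at 1.53 (1.35 to 1.73) in WT and 1.34 (1.12 to 1.59) in DB. These 4 comparisons share libraries in pairs and are not independent of each other.

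**Figure D4:**
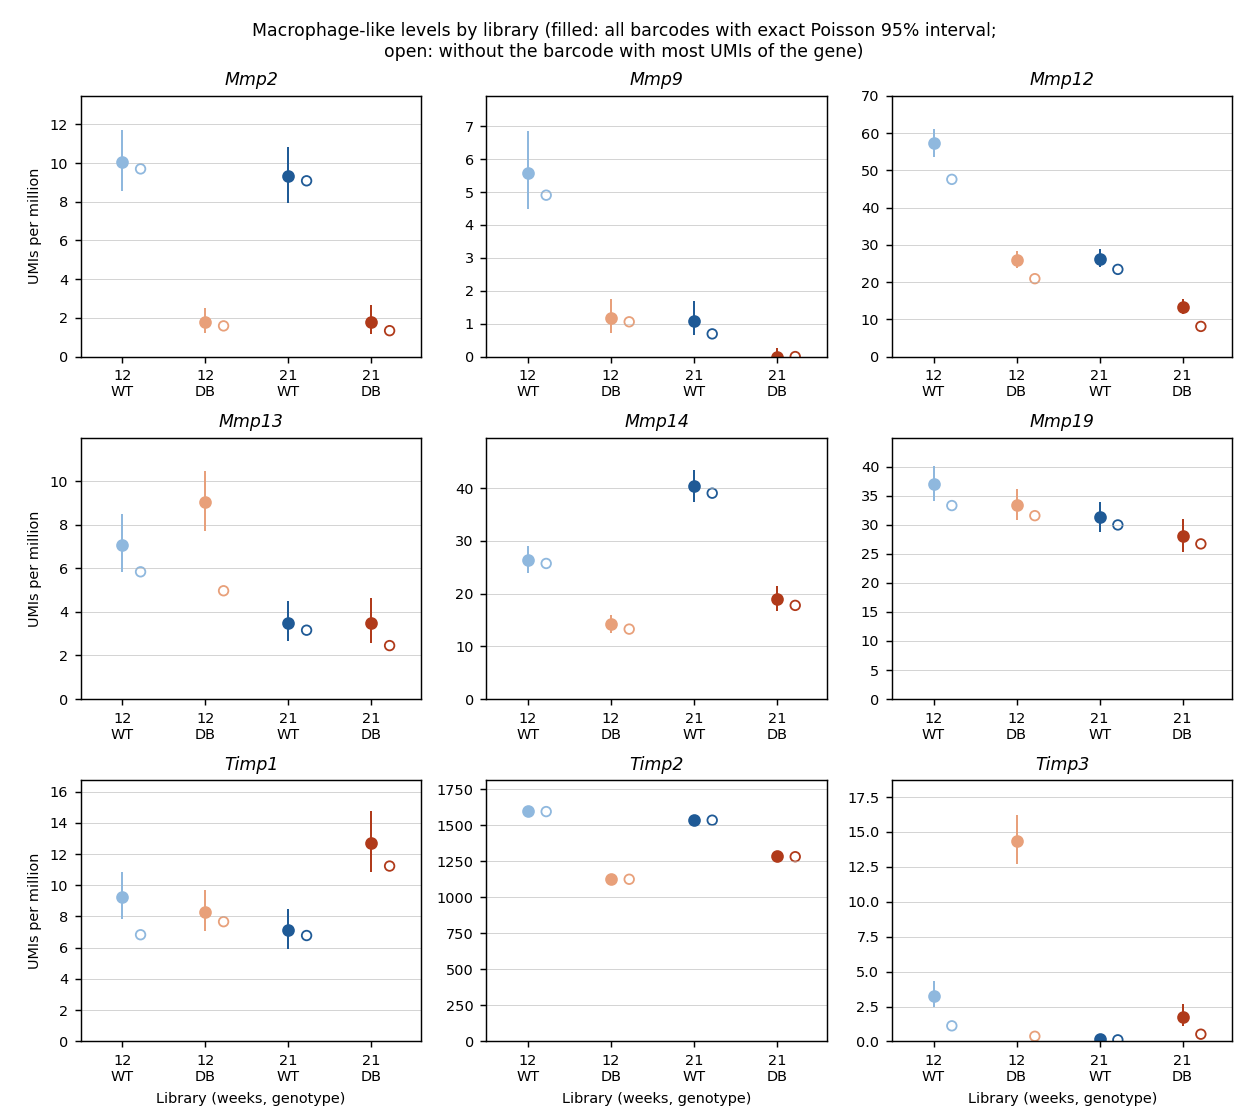
Macrophage-like levels of the 9 genes in CPM for each library, with exact Poisson 95% intervals (filled points), and the level without the barcode that held most UMIs of the gene (open points). Mmp2 lies near 10 in both WT libraries and below 2 in both DB libraries, and the 12-week-DB point of Timp3 drops from 14.4 to 0.371 without 1 barcode.

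The libraries also differed in how many macrophage-like barcodes were MHCII-high, so ratios were repeated inside each fraction, a step chosen after the values were seen. At 21 weeks Mmp12, lower in DB over the whole class, was at 1.83 (1.49 to 2.22) in MHCII-high and 2.15 (1.20 to 4.06) in MHCII-low barcodes. Without the barcode with most Mmp12 of each sum these ratios were 0.95 and 1.14, so the higher level in DB rested on single barcodes, and the lower level of the whole class was not seen in either fraction. Mmp14 was at 1.16 (0.924 to 1.45) in MHCII-high and 0.545 (0.442 to 0.672) in MHCII-low barcodes, with intervals that did not overlap.

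Timp2 was lower in DB in both fractions at 21 weeks, at 0.523 (0.481 to 0.567) in MHCII-high and 0.618 (0.605 to 0.631) in MHCII-low barcodes, each further from 1 than the 0.836 of the whole class. At 12 weeks the MHCII-low ratio was 0.672 (0.659 to 0.685) and the MHCII-high one 0.936 (0.894 to 0.980). Mmp2 in MHCII-low barcodes was at 0.162 (0.104 to 0.244) at 12 weeks and 0.122 (0.0748 to 0.191) at 21 weeks. Timp1 at 21 weeks was higher in DB in both fractions, at 1.85 (1.16 to 2.85) and 3.20 (2.17 to 4.86). Mmp19 in MHCII-low barcodes was higher in DB at both ages, at 1.52 (1.27 to 1.82) and 1.88 (1.52 to 2.35), where the whole class gave 0.904 and 0.897. In MHCII-high barcodes Mmp19 was lower in DB at 12 weeks, at 0.608 (0.522 to 0.709), and at 1.03 (0.794 to 1.33) at 21 weeks.

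Division by Lyve1 split Timp2 differently. In Lyve1+ barcodes DB was below WT at both ages, at 0.832 (0.790 to 0.875) and 0.672 (0.637 to 0.708). In Lyve1- barcodes it was below at 12 weeks (0.690, 0.636 to 0.748) and above at 21 weeks (1.59, 1.45 to 1.74). Mmp14 was lower in DB in Lyve1+ and in Lyve1- barcodes at both ages, with ratios of 0.338 to 0.520. The 12-week ratio in Lyve1+ barcodes (0.428, 0.207 to 0.836) came from 13 UMIs in DB and 33 in WT, under the minimum of 50. Its DB level of 7.70 CPM was below the T-like level of that library, 13.5 (10.8 to 16.7), which includes the higher gamma-delta T-like barcodes.

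Antigen-presenting cells outside the macrophage-like class had other ratios at 21 weeks. In cDC2-like barcodes the DB to WT ratio of Mmp12 was 0.426 (0.397 to 0.458) at 12 weeks and 2.11 (1.90 to 2.33) at 21 weeks. Timp1 there was at 0.948 (0.661 to 1.36) and 4.32 (3.66 to 5.11). In MHCII-high C1q-low barcodes at 21 weeks the DB library was above WT for Mmp12 (4.38, 4.01 to 4.78), Mmp14 (2.19, 1.66 to 2.86), Mmp19 (3.04, 2.63 to 3.51) and Timp1 (6.92, 4.91 to 9.82). Timp2 in that class was at 0.793 (0.633 to 0.986). The class had 87 barcodes in 21-week-DB against 421 in 21-week-WT.

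**Figure D5:**
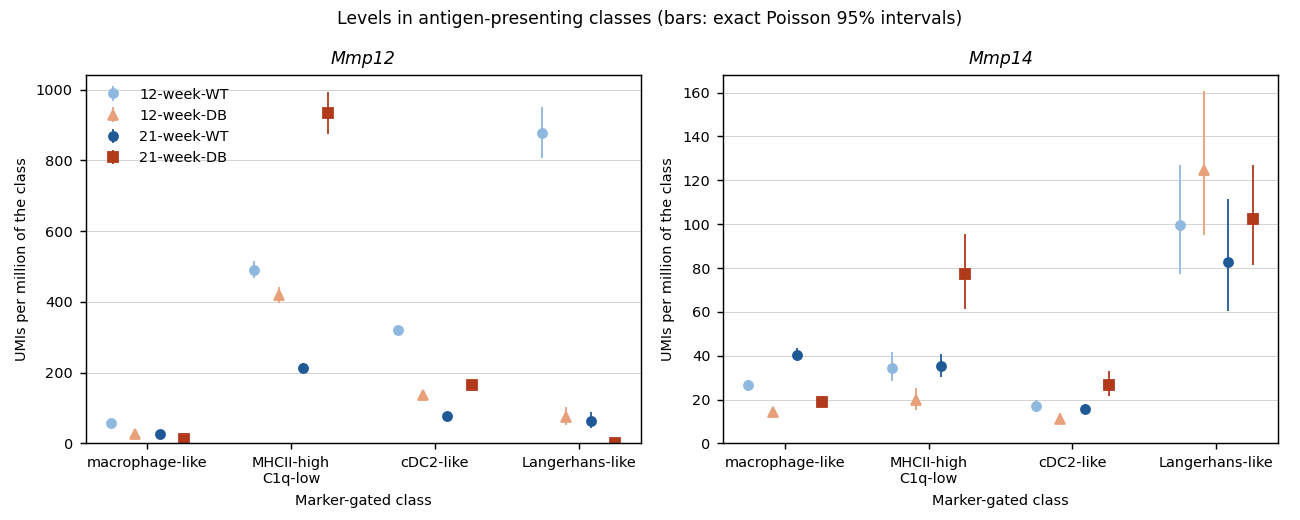
Mmp12 (left) and Mmp14 (right) in CPM, by class (x axis) and library (colour and shape), with exact Poisson 95% intervals as bars. For Mmp12 the MHCII-high C1q-low point of 21-week-DB (933) and the Langerhans-like point of 12-week-WT (877) lie highest, and for Mmp14 the 4 Langerhans-like points (83.0 to 125) overlap.

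In neutrophil-like barcodes the DB to WT ratio of Mmp9 was 0.914 (0.809 to 1.03) at 12 weeks and 0.360 (0.277 to 0.463) at 21 weeks. In stromal-like barcodes, of which each library had 15 to 28, the ratio of Mmp2 was 0.779 (0.633 to 0.956) and 0.299 (0.217 to 0.405), that of Timp2 was 0.947 and 0.811, and that of Timp3 was 0.757 (0.622 to 0.918) and 3.97 (2.84 to 5.65). The 21-week Timp3 ratio had its low value in the WT library, where 15 barcodes were stromal-like.

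The other genes of the pathway were read from fixed lists. Of 16 other metalloproteinases in the files, few had enough UMIs for a fit: Mmp8, the neutrophil collagenase (9.88 on the log2 scale), and the leukocyte membrane-type Mmp25 (4.44) were both higher in neutrophil-like than in macrophage-like barcodes. Mmp3, Mmp11 and Mmp23 were higher in stromal-like barcodes (3 of 4 tested, where 30% of all genes passed in either direction). Among genes of activation and clearance, 5 of 10 were higher and 3 lower in neutrophil-like barcodes, where 39.0% of all genes passed. Those higher included Lcn2, which binds and shields Mmp9 (11.16), and the granule proteases Elane and Prtn3. The scavenger receptor Lrp1 (−3.60), Plau and the MMP inducer Bsg (−0.91) were the 3 that were lower. In MHCII-high macrophage-like barcodes 5 of 8 were higher and 1 lower, where 30.9% of all genes passed, among them the proprotein convertase Furin, which activates Mmp14 (0.85), the hyaluronan receptor Cd44 (0.97) and Plaur (0.77), and Lrp1 was lower (−0.27). The median log2 difference of the 8 was 0.55 against −0.01 over all genes.

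Of the other inhibitors, the membrane-anchored Reck (6.77) and the protease inhibitor Serpine2 (9.77) were higher in stromal-like than in macrophage-like barcodes. Among ADAM and ADAMTS proteases, Adam8 was higher in MHCII-high macrophage-like barcodes (2.09) and lower in Lyve1+ ones (−1.72), as Mmp12 was. Of the matrix substrates, 15 of 16 were higher in stromal-like barcodes, but the gate used 5 of them (Col1a1, Col1a2, Col3a1, Dcn and Lum), so this count is no finding. In macrophage-like barcodes 6 of 9 substrates were past 2-fold lower in DB at 12 weeks, where 4.33% of all genes were past the fold, among them Col1a1 (−2.74), Col3a1 (−2.95) and Sparc (−1.32), beside Mmp2, and at 21 weeks, where 8.20% were, 4 of 6 were lower, among them Fn1 (−2.13) and Sparc (−1.42), and Spp1 was higher (1.40; 180 against 68.1 CPM). The stromal list sums given with Mmp2 moved in the same direction. That list shares Col1a1, Col1a2, Col3a1, Dcn, Lum and Sparc with the substrates, so this is no separate observation.

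The genes with the most similar pattern were found by Pearson correlation of log2(CPM + 1) over 63 class-by-library sums and 12990 genes. These sums share libraries and depth, so r is a description. For Mmp2 they were the stromal genes Prelp (0.94), Thbs2 (0.94) and Lamb2 (0.92), and for Timp3 Cdh13 (0.90), Nfib (0.90) and Gas1 (0.89). For Mmp9 they were S100a9 (0.85), the chemokine receptor Cxcr2 (0.84) and Cstdc4 (0.84). Mmp12 ran with Alox15 (0.86), F7 (0.85) and Ptchd1 (0.85), Mmp19 with Pid1 (0.86), Npc2 (0.82) and Cd300lg (0.82), and Timp2 with Eya4 (0.87), Adam33 (0.86) and Pcolce2 (0.85). The nearest genes to Mmp14 were Egfr (0.74), Bsg (0.74) and Lgi4 (0.73), to Mmp13 Htra3 (0.74), Ccdc80 (0.70) and Lpar1 (0.70), and to Timp1 Htra3 (0.80), Mxra7 (0.76) and Lgi4 (0.74). Between members, r was 0.86 for Mmp2 with Timp3 and 0.66 for Mmp12 with Mmp19.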

How the data were processed

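UMI counts per gene and barcode, deposited by the authors as 1 filtered matrix per library, came from Cell Ranger and the mm10 reference. Per the submitters' notes the version was 5.0.0, while file headers give 5.0.0 (12 weeks) and 6.0.0 (21 weeks). The labels give young or aged, and weeks come from the study's methods.

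The 9 genes and the gene lists were chosen with earlier results of these data known. A barcode was kept when it had 200 genes or more and mitochondrial UMIs of 10% or less. Classes were rebuilt from fixed markers with thresholds, and the osteoclast-like gate, set after values were seen, so they may differ from the study's clusters. No doublet caller or ambient RNA removal was run, and barcodes passing the gates of 2 lineages (635) were left out. Macrophage-like barcodes were thinned to 2000 UMIs for the Lyve1 and the positive-against-negative divisions, which leaves out 28 to 48 barcodes per library.

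Counts were summed per library and class and fitted over all genes in edgeR 4.0.16 (R 4.3.3; quasi-likelihood, TMM, filterByExpr, library as block; Benjamini-Hochberg adjusted p under 0.05, two-sided). Each SE is the absolute log2 difference divided by the square root of the quasi-likelihood F statistic. The tests were checked on simulated counts. In the macrophage-like against cDC2-like comparison 83% of simulated 2-fold changes (12565 genes) and in the stromal-like one 20% (11077 genes) were recovered. Levels carry exact Poisson intervals (SciPy 1.17.1), percents exact Clopper-Pearson intervals and ratios exact conditional binomial intervals, at 95%. A level of 0 is bounded by 3 counts. Replicates are pools of 2 to 3 animals, so p-values between classes rest on 4 libraries that differ in genotype and age. The fit shares its estimate of spread over all genes, so a p-value or SE does not measure a gene's own spread alone. Stromal-like Mmp13 ran from 4.99 to 1234 CPM, and its SE against macrophage-like barcodes was still 0.31.

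Named genes were the 9 members; list genes past a test or highest in macrophage-like sums; the 3 most correlated genes; and the 5 largest rises and falls in each Mmp-positive division averaging 50 CPM or more and moving 1 way in all 4 libraries. Alternatives were DESeq2 1.42.0, other scaling, gates and filters, and leaving out each library.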

Additional observations from a re-analysis of the deposited data

Results flagged for a closer look

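In macrophage-like barcodes the ratio of 21 to 12 weeks went opposite ways in the 2 genotypes for Timp1 (0.770 in WT, 1.53 in DB) and Timp2 (0.962 in WT, 1.14 in DB). With 1 library per condition the difference between genotypes was not tested. Mmp13 was at 11.4 CPM in 12-week-WT barcodes that passed no gate and so entered no comparison, above the level in T-like barcodes of that library, which was 0.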

How the results depend on the processing

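Each condition is 1 library of pooled animals, so no interval covers animals, and low shares of positive barcodes move with depth, which was lowest in 21-week-DB. Over the tests between classes, 522 recomputed values of the members kept direction and side of the threshold, 42 lost and 11 gained the call and 12 changed sign. All sign changes were of differences that had not passed: between macrophage-like and cDC2-like barcodes, Mmp14 (−0.039 without 21-week-WT, leave-one-out range to 0.67) and Mmp19 (0.26 with the stricter gate). Between neutrophil-like and macrophage-like barcodes they were Mmp2 (0.90, stricter gate), Mmp13 (−1.0 with DESeq2; −2.38 without 21-week-DB, range to 2.43) and Timp3 (0.15 with DESeq2, 2.64 with the stricter gate, which passed at an adjusted p of 0.00904; −2.0 without 21-week-WT to 1.28 without 12-week-DB). In the Mmp14 division they were Mmp2 (0.14 without the library block, 1.22 not thinned; −0.83 without 21-week-DB to 0.53 without 21-week-WT) and Timp2 (0.21 not thinned). Without the library block the members passing for Lyve1 were 3 of 5 and for MHCII 4 of 8, and with barcodes thinned 5 passed for MHCII, of 5 with enough UMIs. Genes that went with Mmp14 numbered 119 with DESeq2, 13 without the block, 534 not thinned and 118 to 224 without 1 library. Those that went with Mmp19 numbered 42 with DESeq2, 0 by edgeR without the block, 627 not thinned and 38 to 83 without 1 library. The cause of these differences was not tested. The DB to WT ratio of Timp3 at 12 weeks was 0.394 without shared barcodes, 0.297 without the top 5% of barcodes by UMIs, 0.827 as a mean over barcodes and 0.331 without the barcode with most Timp3, and its 21 to 12 week ratio in DB was 5.57, 1.40 and 1.40 in the first 2 and the last of these. The 21 to 12 week ratio of Mmp12 in WT was 1.24 when barcodes were named by their highest marker score. Members past the fold for DB to WT at 12 weeks were 2 with at least 200 UMIs. At 21 weeks they were 4 with the stricter gate, with the T-like level subtracted or at 1.5-fold, and 1 at 3-fold or with at least 200 UMIs. Between ages in WT they were 1 with naming by score or with at least 200 UMIs, and 2 without the top 5% of barcodes, with TMM factors or at 3-fold. In DB they were 1 without shared barcodes, as a mean over barcodes or at 3-fold, 0 without the top 5% of barcodes and 4 at 1.5-fold. With naming by score, the median level over libraries fell from 1109 to 367 CPM for Mmp2 and from 1182 to 645 for Timp3 in stromal-like barcodes and from 1211 to 646 for Mmp9 in neutrophil-like ones, and the class with the highest median became cDC2-like for Mmp12, monocyte-like for Mmp19 and macrophage-like for Timp2. Without the top barcode of each sum the stromal-like median was 631 for Timp3 and 7.39, in place of 154, for Mmp13. Leaving out shared barcodes and single barcodes was chosen after seeing the data.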
